A study of Mus musculus with 4 samples.

Results

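The angiopoietin-Tie group examined here holds 6 mouse genes. They are the ligand genes Angpt1, Angpt2 and Angpt4, the receptor genes Tek and Tie1, and the receptor phosphatase gene Ptprb. They were picked out by gene name from a table of 46072 genes, and all 6 were found. The rule used no values, but the group and the comparison lists were chosen with earlier results of these data known. The table comes from 4 RNA-seq libraries of enriched mRNA from the brain vasculature of wild-type mice that received no treatment. Per the series title and labels, brain tissue was fixed by perfusion and endothelial cells were taken from it by immuno-laser capture microdissection, in which labelled cells are cut out of a section with a laser. The labels say neither the age, strain and sex of the mice nor whether separate animals gave the libraries. The p-values therefore describe the spread among 4 libraries only, which may be technical. All 4 libraries form 1 group and are called replicates 1 to 4. With no other group, each gene was compared with a fixed level or with other genes of the same library.

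The angiopoietin-Tie system controls the stability and the leakiness of blood vessels. ANGPT1, made largely by cells around the vessel, binds the receptor tyrosine kinase TIE2 (gene Tek) on endothelial cells and activates it, which favours a quiescent, tight endothelium. ANGPT2 is stored and released by endothelial cells and can act as a weak agonist or as an antagonist of the same receptor. ANGPT4 is the least studied ligand of TIE2. TIE1 resembles TIE2, has no well-established angiopoietin ligand of its own and modulates TIE2 signalling in complexes with it. The phosphatase VE-PTP (gene Ptprb) removes phosphate from TIE2 and also acts at endothelial junctions. In the adult brain this system is studied mainly for its part in keeping the blood-brain barrier closed.

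Values are the authors' FPKM, that is, sequenced fragments per length of transcript and per size of library, so levels of different genes can be compared per length. FPKM summed to between 448678 and 482882 per library, and 13344 to 13866 genes per library reached 1 FPKM. Read depth is unknown, so no counting error is given, and an exact 0 may be a failed estimate. No pair of libraries shared more than 4 identical values above 0. The endothelial label was checked against marker lists. All 17 pan-endothelial genes were above 0, and 14 of them passed as above 1 FPKM, beside 47.7% of all genes tested. Every gene of the neuronal, oligodendrocyte and astrocyte lists passed too, so this count does not single out endothelial cells. The pan-endothelial genes had a summed FPKM of 234 to 302 per library. Their median was 4.51 ± 0.239 FPKM (SD, n = 4), against 117 ± 1.33 for 10 neuronal genes, 82.3 ± 7.62 for 9 oligodendrocyte genes and 79.3 ± 5.92 for 8 astrocyte genes. The endothelial median thus lay below the medians of the neuronal, oligodendrocyte and astrocyte lists. It also lay below those of the choroid plexus (24.3 FPKM), microglial (16.7) and fibroblast (6.13) lists. The smooth muscle (3.66), pericyte (2.49) and platelet (0.305) medians were lower. In such bulk samples fewer cells of a type and less RNA per cell cannot be told apart.

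Among the ligands, Angpt1 was measured above Angpt2 in 3 of 4 libraries and Angpt4 was close to absent from the table's values. Angpt1 (ENSMUSG00000022309, GRCm38, chromosome 15, 42424723 to 42676977, minus strand) measured 3.84, 3.52, 1.59 and 2.35 FPKM in replicates 1 to 4, or 2.83 ± 1.04 (SD, n = 4). It was highest in replicate 1 and lowest in replicate 3, a 2.42-fold range. Its exons share 737 of 5205 bases with those of Gm17473, an antisense gene on the opposite strand. Gm17473 itself was listed at 0.0349, 0.140, 0.266 and 0 FPKM. The strand setting of the counting is not stated, so reads from both genes could not be told apart over those bases.

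Angpt2 (ENSMUSG00000031465, chromosome 8, 18690263 to 18741562, minus strand) measured 1.31, 1.57, 2.08 and 1.29 FPKM in replicates 1 to 4, or 1.56 ± 0.366 (SD, n = 4). It was highest in replicate 3, the library in which Angpt1 was lowest. The gene lies inside Mcph1, a gene on the opposite strand, with which it shares 0 exon bases. Mcph1 measured 1.45 to 1.90 FPKM. Angpt4 (ENSMUSG00000027460, chromosome 2, 151911210 to 151945337, plus strand) was listed at 0 in replicates 1, 2 and 3 and at 0.0234 FPKM in replicate 4. That single value stood at the 3.07th percentile of genes above 0 in its library.

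The receptors were measured at like levels, Tie1 with the wider spread. Tek (ENSMUSG00000006386, chromosome 4, 94739289 to 94874976, plus strand) measured 2.48, 3.13, 2.30 and 2.61 FPKM in replicates 1 to 4, or 2.63 ± 0.360 (SD, n = 4). Its coefficient of variation of 13.7% was the lowest of the 5 genes that were above 0 in all libraries. Tie1 (ENSMUSG00000033191, chromosome 4, 118471191 to 118490061, minus strand) measured 4.76, 3.14, 2.58 and 1.94 FPKM, or 3.10 ± 1.21. Replicate 1 was 2.46 times replicate 4, and the coefficient of variation was 39.0%.

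Ptprb (ENSMUSG00000020154, chromosome 10, 116275523 to 116389535, plus strand) was the lowest of the 5 genes that were above 0 in all libraries. It measured 1.44, 1.15, 1.01 and 1.10 FPKM in replicates 1 to 4, or 1.17 ± 0.183 (SD, n = 4). All 4 values lay just above 1 FPKM. Its longest annotated transcript has 11911 bases in 32 exons, against 3560 to 4654 bases for the longest transcripts of Angpt1, Angpt2, Tek and Tie1. Over genes with a mean of 1 FPKM or more, log2(FPKM + 1) changed by -0.31 per doubling of transcript length. Ptprb values adjusted with this slope, which raises every long gene, are given with the comparisons below. The part of length in the low Ptprb values was not tested.

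**Figure D1:**
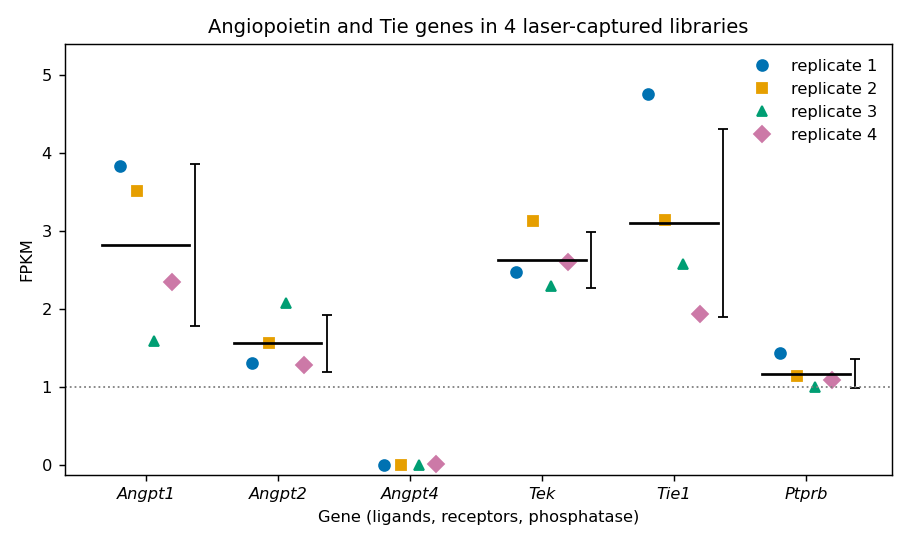
FPKM (y axis) of the 6 genes (x axis) in each of the 4 libraries (coloured symbols), with the mean as a horizontal line and the SD as an error bar beside it, except for Angpt4, which was listed at 0 in 3 libraries. The dotted line marks 1 FPKM. Angpt1 and Tie1 spread over 1.59 to 3.84 and 1.94 to 4.76 FPKM, while Tek stayed between 2.30 and 3.13.

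The spread between libraries can be read against other genes of like level. Over 5292 genes with a mean of 1 to 5 FPKM, the median coefficient of variation was 27.5%, with quartiles of 18.9% and 37.8%. Tie1 at 39.0% lay above the upper quartile and Angpt1 at 36.9% just under it. Angpt2 at 23.4% lay between the quartiles. Tek at 13.7% and Ptprb at 15.6% lay under the lower quartile.

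RefSeq promoter windows (GRCm38.p6) matched 3 of the 6 genes, Tek, Tie1 and Angpt4. Their start regions are shown so that both receptors can be set beside the ligand that was near 0. Each run below is the part before the RefSeq start, 5′ to 3′ on the strand of the gene, up to 250 bases. GGAA, the core that ETS factors recognise, is in capitals in either orientation (GGAA or TTCC). The windows are chr4:94739039-94739288 (plus strand) for Tek, chr4:118490062-118490099 (minus strand) for Tie1 and chr2:151910957-151911206 (plus strand) for Angpt4. For Tie1 only 38 bases are given, because the rest of the window lies in a first exon annotated by GENCODE M21.
Tek: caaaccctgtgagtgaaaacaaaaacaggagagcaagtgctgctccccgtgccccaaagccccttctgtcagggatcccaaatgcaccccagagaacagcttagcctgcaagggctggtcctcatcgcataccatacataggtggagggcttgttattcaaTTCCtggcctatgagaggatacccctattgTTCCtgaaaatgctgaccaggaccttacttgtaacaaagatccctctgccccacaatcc
Tie1: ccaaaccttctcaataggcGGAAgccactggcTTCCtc
Angpt4: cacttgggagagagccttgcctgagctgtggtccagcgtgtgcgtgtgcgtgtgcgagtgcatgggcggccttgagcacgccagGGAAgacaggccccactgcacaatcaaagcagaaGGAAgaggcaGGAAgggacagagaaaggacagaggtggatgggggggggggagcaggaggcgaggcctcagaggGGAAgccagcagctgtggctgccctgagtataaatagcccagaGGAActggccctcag

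The Tek window held 2 matches to GGAA, the 38 bases of Tie1 held 2 and the Angpt4 window held 5. Over 32841 RefSeq promoters of 250 bases, 93.5% held at least 1 match and the median was 3. The motif GATAA, recognised by GATA factors and found in 22.6% of promoters, had 0 matches in these runs. TGTTTAC, a forkhead motif found in 3.17%, also had 0 matches. TATAAA, found in 12.4%, had 1 match, in the Angpt4 window. Matches were counted on both strands, and the matches of different motifs do not overlap. A match describes the letters only.

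Against a level of 1 FPKM, Tie1, Angpt1, Tek and Angpt2 were higher, Angpt4 was lower and Ptprb passed in neither direction (limma, Benjamini-Hochberg adjusted over 25206 genes). These 4 of 6 genes above compare with 47.7% of all genes tested above 1 FPKM, and 1 of 6 below with 40.1%. On the log2(FPKM + 1) scale Tie1 was 0.99 ± 0.19 (SE) above 1 FPKM (limma, adjusted p = 0.00400), and each of its 4 libraries was above. Angpt1 was 0.89 ± 0.19 above (adjusted p = 0.00663) and Tek 0.85 ± 0.11 above (adjusted p = 0.000957), both in 4 of 4 libraries. Angpt2 was 0.35 ± 0.13 above (adjusted p = 0.0488) in 4 of 4 libraries, a call that was lost when any 1 library was left out (adjusted p = 0.0805 to 0.144).

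Ptprb was 0.12 ± 0.11 (SE) from 1 FPKM on the log2(FPKM + 1) scale (limma, adjusted p = 0.337, 95% interval -0.15 to 0.39). With adjustment for transcript length it was 0.75 above and passed (adjusted p = 0.000357). It also passed with FPKM rescaled to the same sum in every library, as TPM has, where it was 0.81 above (adjusted p = 0.00489). That rescaling moved the median of all genes from 0.27 to 0.99 above the level, and placed 13693 genes above and 7474 below it in place of 12034 and 10104. The Ptprb value thus moved with the median of all genes and stayed below it. Angpt4 was below 1 FPKM with its 3 listed zeros (limma, adjusted p = 3.19e-07, and 3.14e-05 with a pseudocount of 0.01). With 3 values at 0 this p-value says little about the spread between libraries. Its fitted difference depends on the pseudocount as well and is not given.

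Against the median of general endothelial genes all 6 members were lower. The reference was the median of the 17 pan-endothelial genes in each library, 4.32 to 4.86 FPKM, with no member among them. All 6 genes passed as lower and 0 as higher in limma (adjusted over 25206 genes), where 61.1% of all genes tested were lower and 30.8% higher. Of the 17 pan-endothelial genes themselves, 8 passed as higher than this median, 6 as lower and 3 in neither direction. A list lies on both sides of its own median by construction, so no conclusion about the members is drawn from this split. The members' median difference of -0.86 stands beside -1.20 for all genes tested. Tie1 was nearest to the reference at -0.47 ± 0.17 (SE) on the log2(FPKM + 1) scale (adjusted p = 0.0194). It was followed by Angpt1 at -0.57 ± 0.18 (adjusted p = 0.00880) and Tek at -0.61 ± 0.15 (adjusted p = 0.00248). Angpt2 lay at -1.11 ± 0.16 (adjusted p = 2.82e-05) and Ptprb at -1.35 ± 0.15 (adjusted p = 1.77e-06). Each was below the reference in 4 of 4 libraries. The Tie1 call was lost without replicate 4, where the difference was -0.34 (adjusted p = 0.115). With adjustment for transcript length the Ptprb difference became -0.73 and stayed past the threshold (adjusted p = 1.97e-06).

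Endothelial genes themselves lay on both sides of Tek. Of the 17 pan-endothelial genes 10 passed as higher than Tek, 3 as lower and 4 in neither direction. The lower ones were Cdh5, Robo4 and Erg, an ETS factor gene named after its values were seen. Pecam1, the adhesion molecule CD31, measured 4.31 ± 0.570 FPKM (SD, n = 4), and each of the 6 genes was below it in 4 of 4 libraries. Tek was 0.510 to 0.745 times Pecam1, Tie1 0.551 to 0.981 times, Angpt1 0.354 to 0.803 times, Angpt2 0.269 to 0.463 times and Ptprb 0.226 to 0.313 times. Cldn5, the tight junction protein claudin-5, measured 19.0 ± 0.698 FPKM. Cdh5, the gene of vascular endothelial cadherin, measured 0.878 ± 0.367 FPKM and differed from Tek by -0.96 ± 0.19 (SE) on the log2(FPKM + 1) scale (limma, adjusted p = 3.27e-05). Kdr, a VEGF receptor gene, measured 2.39 ± 0.367 FPKM. It differed from Tek by -0.10 ± 0.20 (SE) on the log2(FPKM + 1) scale, with a 95% interval of -0.51 to 0.30 (limma, adjusted p = 0.628).

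Tek was then used as the reference, since the ligands, TIE1 and the phosphatase all act on its product. Of the other 5 members, Angpt2, Ptprb and Angpt4 were lower than Tek, 0 were higher, and Angpt1 and Tie1 passed in neither direction (limma, adjusted over 25205 genes). Of all genes tested 52.0% were lower than Tek and 37.2% higher. Angpt2 differed from Tek by -0.51 ± 0.21 (SE, adjusted p = 0.0231) and was lower in 4 of 4 libraries. That call was lost without replicate 1, 2 or 4 (adjusted p = 0.0766, 0.0559 and 0.112). Ptprb differed by -0.74 ± 0.20 (adjusted p = 0.00111), lower in 4 of 4 libraries, and by -0.32 with adjustment for transcript length (adjusted p = 0.0406). Angpt1 differed by 0.04 ± 0.20 (adjusted p = 0.859), with a 95% interval of -0.36 to 0.44. Tie1 differed by 0.14 ± 0.20 (adjusted p = 0.507), with an interval of -0.26 to 0.54. The intervals leave room for differences in either direction, so these results do not show equal levels.

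**Figure D2:**
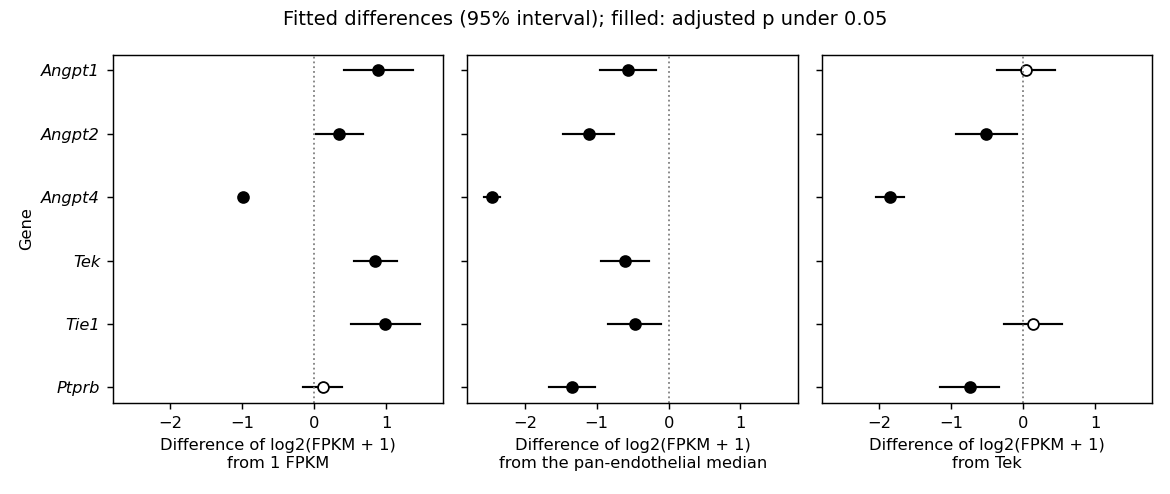
Fitted differences of log2(FPKM + 1) (x axis) for each gene (y axis) from 1 FPKM, from the pan-endothelial median of the library and from Tek, with 95% intervals from limma. Filled points passed the threshold of 0.05 after adjustment. All 6 genes lie left of the pan-endothelial median, and Angpt1 and Tie1 straddle the level of Tek.

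The order of mean levels was Tie1, Angpt1, Tek, Angpt2, Ptprb and Angpt4. In 15 pairs of members, 10 differed in the same direction in all 4 libraries and 9 had ranges that did not overlap. Angpt4 accounts for 5 of each. Among the 10 pairs without Angpt4, ranges did not overlap for Angpt1 against Ptprb, Angpt2 against Tek, Tek against Ptprb and Tie1 against Ptprb. Neighbours in the order overlapped from Tie1 down to Tek, where the order changed from library to library. Angpt2 and Ptprb overlapped too, with Angpt2 higher in 3 of 4 libraries by 0.23 ± 0.29 (SD) on the log2(FPKM + 1) scale. With adjustment for transcript length that difference was -0.30, so the order of these 2 genes turned. An exact 2-sided sign-flip test over 4 libraries reached an adjusted p of 0.188 over the 15 pairs at its smallest, so no pair could pass 0.05.

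Angpt1 exceeded Angpt2 in all but 1 library. The ratio of Angpt1 to Angpt2 was 2.93, 2.24, 0.764 and 1.82 in replicates 1 to 4, or 1.94 ± 0.909 (SD, n = 4). Replicate 3 was the only library below 1. The log2(FPKM + 1) difference of Angpt1 and Angpt2 was 0.55 ± 0.57 (SD), with an exact sign-flip p of 0.250 (0.312 adjusted over 15 pairs). The ratio of Tie1 to Tek was 1.92, 1.0, 1.12 and 0.741, and the order of the receptors thus turned in replicate 4. The ratio of Angpt2 to Tek was 0.905 in replicate 3 and 0.495 to 0.528 in the others. The ratio of Ptprb to Tek was 0.366 to 0.580, below 1 in all 4 libraries.

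The summed FPKM of the 3 ligands was 5.15, 5.09, 3.67 and 3.67 in replicates 1 to 4, and that of both receptors 7.24, 6.27, 4.88 and 4.55. The ratio of these sums was 0.711, 0.812, 0.752 and 0.807, or 0.770 ± 0.0481 (SD, n = 4). All 6 genes summed to 13.8, 12.5, 9.55 and 9.32 FPKM, or 11.3 ± 2.22, with replicates 1 and 2 above 3 and 4.

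**Figure D3:**
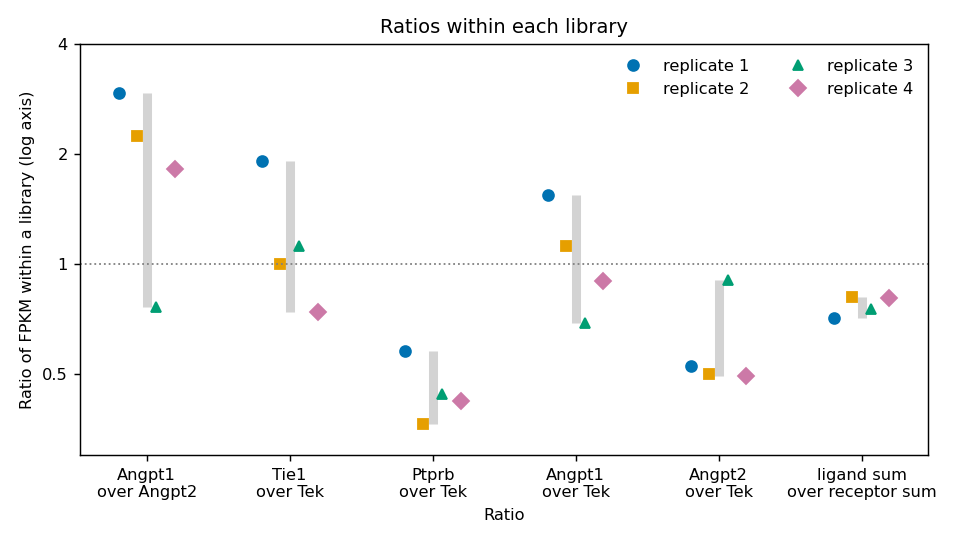
Ratios of FPKM within each library (y axis, log axis) for 5 pairs of genes and for the sum of ligands over the sum of receptors (x axis), with 1 symbol per library and a grey bar from lowest to highest. The ratio of Angpt1 to Angpt2 ran from 0.764 to 2.93 and the ratio of the sums from 0.711 to 0.812.

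Genes with the most similar levels were sought among 145 genes of the fixed lists. Likeness was the largest difference of log2(FPKM + 1) over the 4 libraries, so it describes level and says nothing of function. Tek was nearest to Fli1, an endothelial ETS factor (0.20), and then to Mylk, a myosin light chain kinase (0.28). Tie1 was nearest to Myh11, a smooth muscle myosin (0.32), and Itga2b, a platelet integrin (0.33). Angpt1 was nearest to Ets1, a transcription factor (0.43), and Pik3cb, a lipid kinase subunit (0.49). Angpt2 was nearest to Col3a1, a collagen of fibroblasts (0.27), and Foxo3, a forkhead factor (0.35). Ptprb was nearest to Col1a1, another collagen (0.31), and Robo4, an endothelial receptor (0.39). The nearest genes thus came from endothelial, mural, fibroblast, platelet and signalling lists.

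Most genes that carry the signal inside the cell were measured above Tek. Against Tek 16 of 20 were higher in limma, Dok2 and Grb7 were lower, and Nos3 and Pik3cb did not pass, beside the 37.2% higher and 52.0% lower over all genes tested. Of these 20 adaptors and kinases linked to TIE2, 18 lay above 1 FPKM, 0 below and 2 in neither direction. Over all genes tested 47.7% lay above 1 FPKM and 40.1% below. Relative to the pan-endothelial median 13 were higher and 3 lower, beside 30.8% and 61.1% of all genes tested. The median difference was 0.95 beside -1.20 for all genes tested. Pak1, a kinase downstream of the adaptor NCK, measured 99.1 ± 9.90 FPKM (SD, n = 4), and Mapk3, an ERK kinase gene, measured 44.8 ± 2.26. These kinases are active in many cell types. Adaptors that dock on the receptor ranged widely. Grb2 and Grb14, named after their values were seen, measured 35.6 ± 3.01 and 20.5 ± 0.195 FPKM. Dok2 was listed at 0.773, 1.60, 0.392 and 0 FPKM in replicates 1 to 4, and Grb7 measured 1.19 ± 0.469. Nos3, the endothelial nitric oxide synthase, was singled out after its values were seen. It measured 2.69 ± 0.376 FPKM, a level that differed from Tek by 0.02 ± 0.19 (SE, limma, adjusted p = 0.908, 95% interval -0.37 to 0.42).

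Of 10 transcription factors of the pathway 8 lay above 1 FPKM and 1 below, beside 47.7% and 40.1% of all genes tested. Relative to the pan-endothelial median 3 were higher and 7 lower, shares near the 30.8% and 61.1% over all genes tested. The median difference was -0.81 beside -1.20 for all genes. Mef2c measured 45.9 ± 1.13 FPKM (SD, n = 4), Mef2a 12.6 ± 2.59 and Klf2, a factor of quiescent endothelium, 5.79 ± 0.937. Klf4 at 1.35 ± 0.285 FPKM passed in neither direction against 1 FPKM (limma, adjusted p = 0.140). Foxo4 lay below 1 FPKM at 0.249 ± 0.128. Foxo1, the factor that TIE2 signalling restrains through AKT and that drives Angpt2, was singled out after its values were seen. It measured 1.98, 2.29, 2.28 and 2.58 FPKM in replicates 1 to 4, above 1 FPKM (limma, adjusted p = 0.00194).

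Of 9 surface partners and sheddases, 6 lay above and 3 below 1 FPKM, beside 47.7% and 40.1% of all genes tested. Against the pan-endothelial reference 3 were higher and 5 lower, shares near the 30.8% and 61.1% over all genes tested. The median difference was -0.34 beside -1.20 for all genes. The integrin genes Itgb1, Itgb5 and Itgav measured 22.2 ± 0.595, 13.2 ± 1.04 and 7.05 ± 2.76 FPKM (SD, n = 4). Itgb3, another integrin subunit, measured 0.179 ± 0.0980 FPKM. Svep1, a matrix protein gene, measured 0.366, 0.0303, 0.00545 and 0.103 FPKM in replicates 1 to 4. Adam17, a protease that sheds receptor ectodomains, was singled out after its values were seen and measured 3.30 ± 0.707 FPKM.

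The structural relatives of the members were the angiopoietin-like genes and the R3 phosphatases. Of 7 angiopoietin-like genes, whose products do not act as classical TIE2 ligands, 2 lay above and 3 below 1 FPKM, 1 in neither direction, and 1 was not tested. Relative to the pan-endothelial median 0 were higher, 4 lower and 2 in neither direction. Angptl6 measured 3.60, 3.07, 3.56 and 6.55 FPKM in replicates 1 to 4, and Angptl2 measured 3.63 ± 0.132 (SD, n = 4). Angptl4 measured 0.901 ± 0.373 FPKM. Angptl7 was listed at 0 in 2 libraries, and Angptl8, which the table names Gm6484, in all 4. Of 4 phosphatases of the same R3 class as VE-PTP, Ptpro measured 2.32 ± 0.650 FPKM and Ptprj 1.78 ± 0.522, and both lay above 1 FPKM. Ptprh lay below it at 0.429 ± 0.212, and Ptprq was listed at 0 in all libraries. All 3 tested phosphatases lay below the pan-endothelial median. Counts for these lists can be read against the 47.7% above and 40.1% below 1 FPKM, and the 30.8% above and 61.1% below the pan-endothelial median, over all genes tested.

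**Figure D4:**
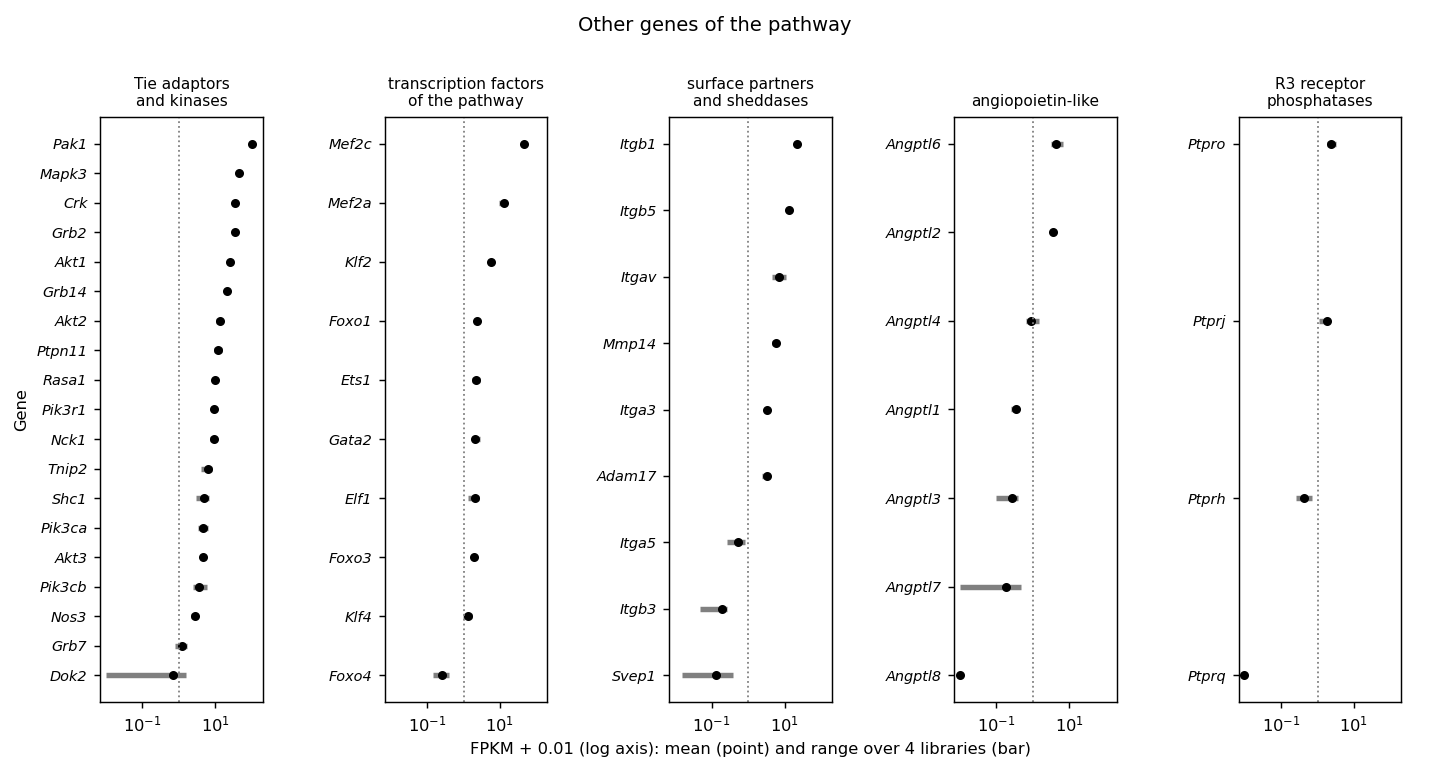
FPKM plus 0.01 (x axis, log axis) of other pathway genes in 5 lists (y axis), with the mean over 4 libraries as a point and the range as a bar. The dotted line marks 1 FPKM. Pak1 at 99.1 FPKM is the highest, and Angptl8 and Ptprq are listed at 0.

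Markers of other cells that can express these genes were measured in the same libraries. The median of 10 pericyte genes was 2.49 ± 0.283 FPKM (SD, n = 4) and that of 10 smooth muscle genes 3.66 ± 0.636, both near the receptors. Vtn, a pericyte gene, measured 61.4 ± 9.07 FPKM, Myl9, a smooth muscle myosin light chain, 58.1 ± 6.29, and Igf2, high in fibroblasts, 39.4 ± 12.5. The summed FPKM of the pericyte list was 94.6 to 107, of the smooth muscle list 161 to 197 and of 8 fibroblast genes 87.1 to 111. Of 5 platelet genes, which mark another source of Angpt1, 4 were above 0 in some library and Gp6, named after its values were seen, was listed at 0 in all 4, with a summed FPKM of 3.46 to 5.01.

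The lists of neuronal, glial and choroid plexus cells stood far higher. Snap25, a synaptic gene, measured 1433 ± 185 FPKM (SD, n = 4), Mobp, a myelin gene, 999 ± 92.2 and Aldoc, an astrocyte aldolase, 471 ± 60.7. Ttr, the choroid plexus gene for transthyretin, measured 14493 ± 2381 FPKM. The sum over the angiopoietin-Tie genes was higher in replicates 1 and 2 than in 3 and 4, an order that was looked for in the lists after the values were seen. Among the members above 0 in all libraries, Angpt1, Tie1 and Ptprb each had this order, while Tek and Angpt2 did not. Of the 10 marker lists 5 had it too, in sums that weigh the highest genes of a list most. The pericyte sum was 104, 107, 96.8 and 94.6 FPKM in replicates 1 to 4, the smooth muscle sum 171, 197, 164 and 161, the astrocyte sum 980, 1069, 896 and 859, and the microglial sum 285, 337, 238 and 281. The neuronal sum had it by a narrow margin, at 2506, 2938, 2340 and 2504 FPKM. The pan-endothelial sum, at 234, 302, 274 and 264 FPKM, did not have it. Their part in the member values was not tested.

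**Figure D5:**
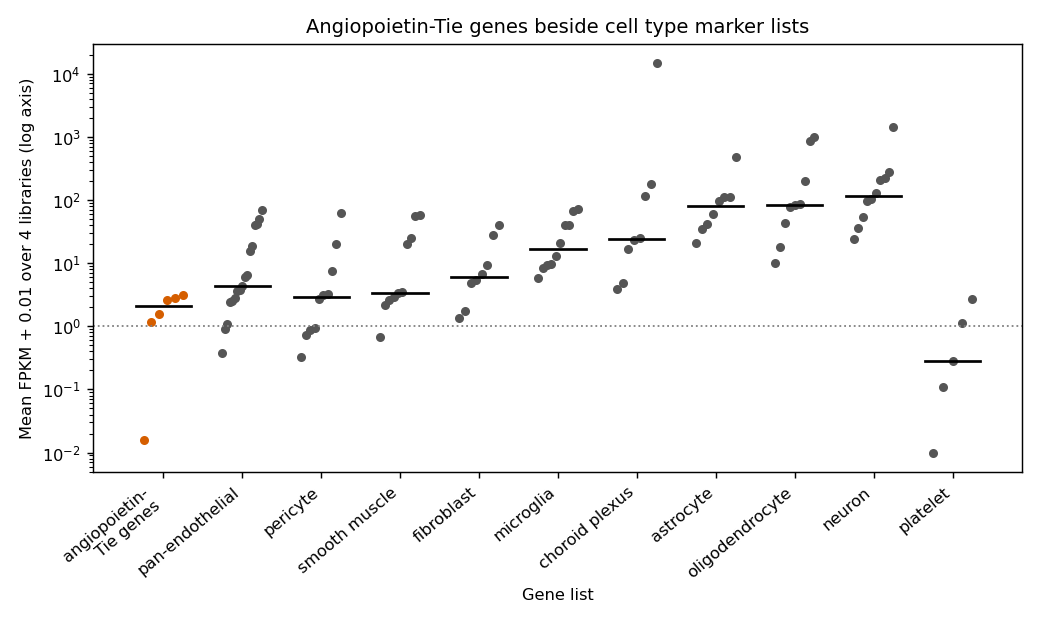
Mean FPKM plus 0.01 over 4 libraries (y axis, log axis) of each gene in the angiopoietin-Tie group and in 10 cell type marker lists (x axis), with list medians as lines and 1 FPKM as a dotted line. Of the angiopoietin-Tie genes 5 lie between 1.17 and 3.10 FPKM, below the medians of the neuronal, glial and choroid plexus lists.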

How the data were processed

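The authors deposited FPKM per gene for each of 4 poly(A) RNA-seq libraries, made, per the labels' protocols, with a random-primed kit from enriched mRNA. Per the submitters' processing notes the tools were StringTie 2.2.1, HISAT2 2.2.1, bcl2fastq 2.20 and SAMtools, with build GRCm38. The annotation release, strand setting and role of each tool were not given in the sources used here. Low values showed no whole-read steps, since at most 0.737% of low genes shared 1 ratio between libraries. Each column was matched to its sample by the library name, and 0 value columns were left out.

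Values were analysed as log2(FPKM + 1), a scale that understates differences of low genes. limma 3.58.1 in R 4.3.3, with a mean-variance trend, tested all 25206 genes above 0 in any library (2-sided, Benjamini-Hochberg adjustment over all genes, threshold 0.05). Since most genes passed, adjusted values lie close to raw ones: for Angpt2 against 1 FPKM the raw p was 0.0428. The step was tested on simulated data. GENCODE M21 (GRCm38) gave positions and, for 45223 genes, transcript lengths. RefSeq (GRCm38.p6) gave promoters. Of the list symbols, 150 matched by name and 1 by gene ID.

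Members and lists were chosen with earlier results of these data known. Named genes are the members, Pecam1, Cldn5, Cdh5, Kdr, the 3 highest and 2 lowest of each pathway list, the highest of each other marker list, the 2 genes nearest to each member and genes overlapping its exons. Exceptions are marked, and 2 genes that the rule names are not reported here. Mcph1 is named for its overlap outside exons. Alternatives covered pseudocounts of 0.1 and 0.01, filters, scaling, the variance trend, the mean in place of the pan-endothelial median, transcript length and each library left out.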

Additional observations from a re-analysis of the deposited data

Results flagged for a closer look

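Of 56 sets of 4 library values examined for 1 library far from the others, 4 stood out. Chance gives about 1 in 20 for independent values with a normal spread, which these sets need not have. The ratio of Angpt2 to Tek was 0.905 in replicate 3 against 0.495 to 0.528 in the other libraries. Kdr measured 2.93 FPKM in the same replicate against 2.16 to 2.29. Angptl6 measured 6.55 FPKM in replicate 4 against 3.07 to 3.60. Angpt4 was listed at 0.0234 FPKM in replicate 4 and at 0 in the others, where any value above 0 would have stood out.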

How the results depend on the processing

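Of the counts under each alternative, 110 stayed within 1.5 times of the reported count and 4 did not. Without Angpt4, which a minimum mean of 0.1 FPKM leaves out, 0 members lay below 1 FPKM. Leaving out 1 library gave 0 to 1 member below 1 FPKM and 1 to 3 members below Tek, with the lowest values without replicate 4, the only library with Angpt4 above 0. With FPKM rescaled to the same sum in every library, 4 pathway genes lay below 1 FPKM in place of 8. Among values of single genes and pairs, 289 stayed the same, 8 lost the call, 2 gained it and 8 changed sign. For single genes the same means direction and side of the threshold. Pairs were judged by direction only, since no pair could pass the threshold. Angpt1 against Tek was 0.00 with length adjustment and -0.11 without replicate 1, in limma and in the pairs alike, with a range of -0.11 to 0.17 when 1 library was left out. Tie1 against Tek ranged from -0.06 (without replicate 1) to 0.28, Tek minus Tie1 from -0.28 to 0.06 and Angpt1 minus Tie1 from -0.20 to 0.02 (without replicate 3). Angpt2 minus Ptprb was -0.30 with length adjustment. The cause was not tested.

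With no filter, 30135, 36539 and 34310 genes lay below 1 FPKM, the pan-endothelial median and Tek, against 10104, 15401 and 13110, because genes at 0 then enter. With a minimum mean of 0.1 FPKM, 5197 lay below 1 FPKM and 8032 below Tek. No paired analysis was possible because all 4 libraries form 1 group. Unknown depth and 4 libraries limit what can be told apart. The 95% interval for Angpt1 against Tek, for example, ran from -0.36 to 0.44.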
